A study of Mus musculus with 18 samples.

Results

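The genes described here encode the enzymes and adaptors that retrotranslocate, deglycosylate, cleave, glycosylate or degrade the transcription factor Nrf1, which the count table lists as Nfe2l1. They were chosen by symbol and number 8 of the 23420 gene symbols counted: Syvn1, Sel1l, Ngly1, Ddi2, Fbxw7, Btrc, Ogt and Hcfc1. All 8 were among the 11762 genes that passed the expression filter. RNA was sequenced from NIH-3T3 cells, an established line of immortalized mouse fibroblasts, as wild-type (WT) cells or as the Nrf1-KO line made from them with CRISPR/Cas9. In each line the groups were vehicle (DMSO) and 6 h or 24 h of carfilzomib (CFZ) at 200 nM, with 3 libraries each and 18 in all. No time is given for DMSO, and all groups of a genotype come from a single line. The 3 libraries of a group were biological replicates of that line, so the p-values do not cover differences between independently edited lines.

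Nrf1 is made as a glycoprotein held in the membrane of the endoplasmic reticulum (ER), from which it is normally pulled into the cytosol and destroyed by the proteasome. HRD1, the ubiquitin ligase encoded by Syvn1, and its partner SEL1L work in this step, which is a case of ER-associated degradation (ERAD), together with the ATPase VCP. The N-glycanase NGLY1 then strips the glycans and the aspartic protease DDI2 cleaves the protein. When CFZ, an irreversible proteasome inhibitor, blocks degradation, the cleaved protein enters the nucleus and raises transcription of proteasome genes. FBXW7 and β-TrCP (Btrc), substrate receptors of SCF ubiquitin ligases, mark it for removal. OGT, which attaches O-GlcNAc to proteins, and its partner HCF-1 (Hcfc1) also act on Nrf1 levels.

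The libraries held between 8333148 and 23917081 counted reads (median 14419832). Each of the 18 libraries was closest to a library of its own group. Levels are given as TMM-scaled CPM, the reads of a gene relative to the scaled size of its library. Nfe2l1 was measured first as a check of the labels and stood at 457, 437 and 449 CPM in WT DMSO, 650, 648 and 628 at 6 h of CFZ and 559, 555 and 580 at 24 h. The Nrf1-KO libraries read 174, 185 and 181 CPM in DMSO, 413, 416 and 427 at 6 h and 210, 202 and 201 at 24 h. At each treatment all Nrf1-KO libraries were thus below all WT libraries, although reads on the gene remained, and counts over a whole gene do not show the edit itself. The summed level of 8 fibroblast markers was 30000 to 38200 CPM in the DMSO libraries of both lines and 30400 to 34500 at 6 h, and at 24 h it was 8790 to 9070 in WT and 11600 to 13600 in Nrf1-KO cells. Of the 7 markers of other cell types, Epcam was listed at 0 in every library, and the highest library of each of the others was 0.19 CPM for Krt8, 13 for Cdh1, 0.328 for Pecam1, 3.66 for Cdh5, 1.33 for Ptprc and 4.63 for Cd68. The sum of the 2 endothelial markers was 0.12 to 0.591 CPM in DMSO and at 6 h and 2.54 to 3.83 at 24 h over both lines, and that of the 2 blood markers 0.364 to 2.32 and 2.74 to 5.77 CPM. The sum of the 3 epithelial markers was 5.9 to 13 CPM in DMSO, 0.874 to 4.71 at 6 h and 0.333 to 0.813 at 24 h. These levels are shares of the reads of a library, so they do not show the number of cells or the RNA per cell. The part of these marker levels in the results at 24 h was not tested.

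CFZ moved the 8 genes in different directions. The pair of the ER ligase, Syvn1 and Sel1l, rose in both lines, Ddi2 rose in both lines, and Ngly1 fell at 24 h in both. Fbxw7, Btrc, Ogt and Hcfc1 stayed within a range of 1.3-fold between their highest and lowest group means. Across the 6 groups the span was 5.47-fold for Ngly1, 2.83-fold for Syvn1, 1.97-fold for Sel1l and 1.8-fold for Ddi2. Of all genes tested, 89.6% had a smaller span than Ngly1 and 73.4% a smaller span than Syvn1, whereas only 2.64% had a smaller span than Btrc, the gene with the least movement of the 8. The shares were 49.6% for Sel1l and 40.4% for Ddi2.

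**Figure D1:**
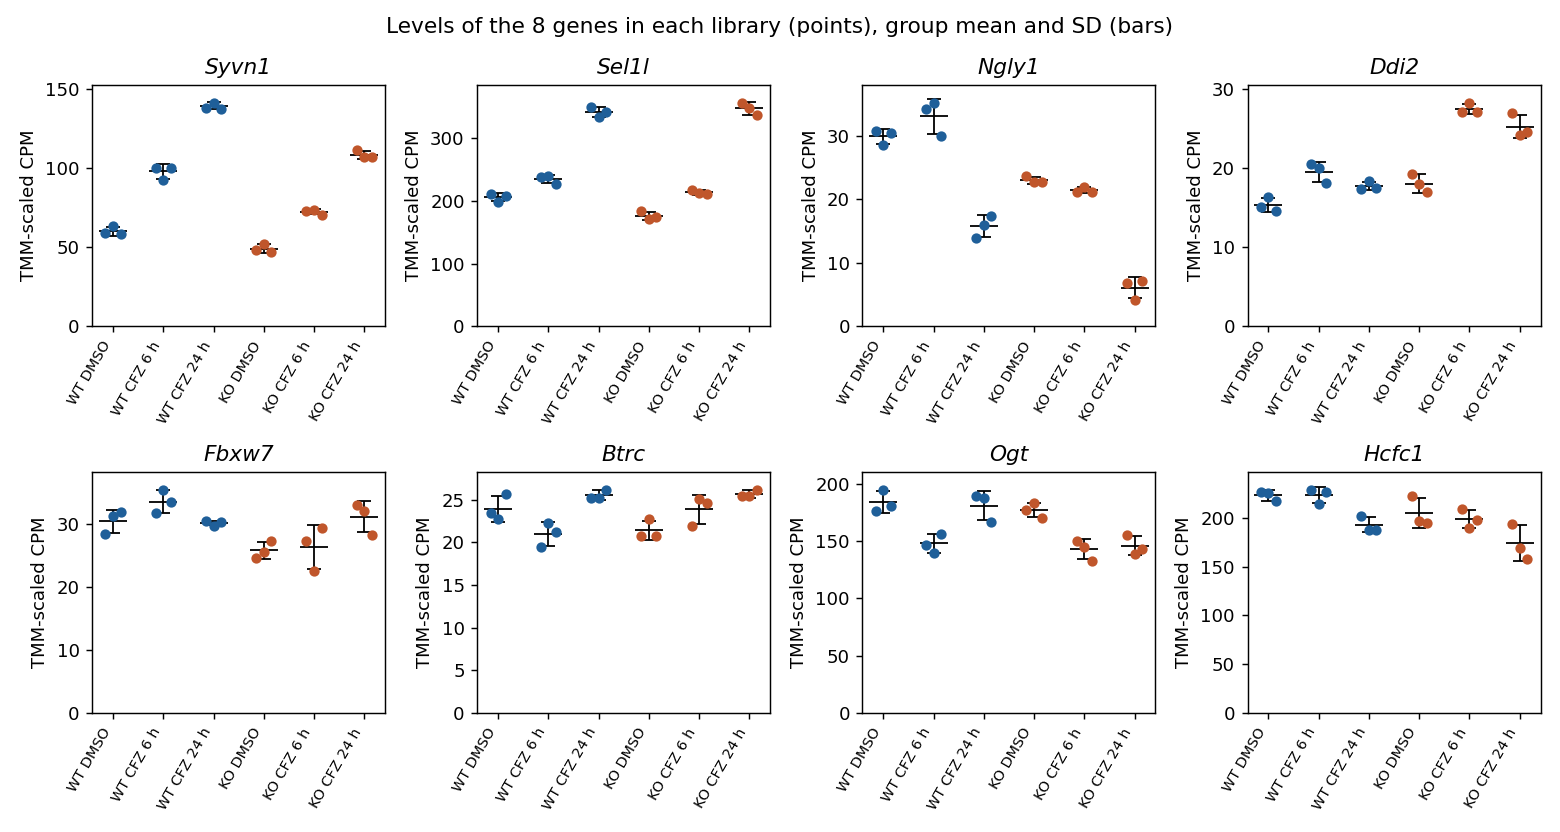
TMM-scaled CPM (y axis, from 0) of the 8 genes in each of the 18 libraries, by group (x axis; WT blue, Nrf1-KO (KO) orange). Points are libraries, horizontal bars are means and error bars SD (n = 3). Syvn1 reached 137 to 141 CPM in WT cells at 24 h of CFZ, and Ngly1 fell to between 4.16 and 7.17 CPM in the Nrf1-KO line at 24 h.

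Per kilobase of exon, which allows levels of different genes to be compared, Hcfc1 was the highest in WT DMSO at 26.7 ± 0.635 CPM per kb (SD, n = 3), above Sel1l at 24.1 ± 0.77 and Ogt at 22.9 ± 1.19. The libraries of Sel1l and Ogt overlapped. Syvn1 followed at 12.3 ± 0.577 CPM per kb and lay apart from its neighbours. Fbxw7 at 4.32 ± 0.26 and Ngly1 at 3.95 ± 0.161 CPM per kb overlapped, and Ddi2 at 1.6 ± 0.0969 and Btrc at 1.41 ± 0.0917 were the lowest. After 24 h of CFZ the order in the Nrf1-KO line had changed: Sel1l was highest at 40.6 ± 1.15 CPM per kb, Syvn1 second at 22.3 ± 0.518, with libraries overlapping those of Hcfc1, and Ngly1 last at 0.801 ± 0.218. The length used was that of all annotated exons together, so a gene such as Btrc, with 16908 such bases over 11 transcripts, may be given too low a level per kb. Ddi2 may be too, because 18.3% of its exonic bases are shared with Rsc1a1 and reads there may have been counted to neither gene.

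Syvn1 encodes the catalytic subunit of the ER ligase and lies on chromosome 19 (6046576 to 6053712, plus strand, GRCm38). In WT cells it stood at 58.7, 63.1 and 57.9 CPM in DMSO, 100, 92.3 and 100 at 6 h and 138, 141 and 137 at 24 h. The Nrf1-KO libraries read 48.3, 51.9 and 46.8 CPM in DMSO, 73, 73.6 and 70.4 at 6 h and 111, 107 and 107 at 24 h. The groups did not overlap between any pair of times within a line, and at each treatment all Nrf1-KO libraries were below all WT libraries. In WT cells the log2 fold change over DMSO at 6 h was 0.70 ± 0.0441 (standard error; adjusted p = 3e-15), and that at 24 h was 1.21 ± 0.0423 (adjusted p = 2.1e-22), all tests being edgeR's quasi-likelihood test, adjusted by Benjamini-Hochberg over every gene that passed the filter. The corresponding Nrf1-KO values were 0.57 ± 0.0479 (adjusted p = 4.4e-12) and 1.15 ± 0.0436 (adjusted p = 1.7e-21). Syvn1 was lower in the Nrf1-KO than in the WT line by a similar step in each treatment, with log2 differences of -0.30 in DMSO, -0.43 at 6 h and -0.36 at 24 h (adjusted p = 2.5e-06, 1.2e-09 and 1.6e-09). The interaction, which is the log2 response of the Nrf1-KO cells minus that of the WT cells, was -0.13 at 6 h (95% interval -0.27 to 0, adjusted p = 0.11) and -0.06 at 24 h (-0.19 to 0.06, adjusted p = 0.39). A difference between the responses was thus not shown, within these limits. The interaction at 6 h passed in 4 of 25 alternative fits. The lowest adjusted p was 0.0184, without WT CFZ 6 h replicate 2 (-0.20).

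Sel1l encodes the adaptor that holds HRD1 to its substrates and lies on chromosome 12 (91806043 to 91849157, minus strand, GRCm38). In WT cells it stood at 212, 199 and 208 CPM in DMSO, 239, 240 and 228 at 6 h and 350, 335 and 342 at 24 h. The Nrf1-KO libraries read 184, 172 and 174 CPM in DMSO, 218, 213 and 211 at 6 h and 357, 349 and 337 at 24 h. The Nrf1-KO libraries were below all WT libraries in DMSO and at 6 h, and the lines overlapped at 24 h. At 6 h Sel1l rose in WT cells by 0.19 ± 0.0355 on the log2 scale (adjusted p = 2.1e-05), and by 24 h the rise was 0.73 ± 0.0349 (adjusted p = 1e-18). The WT value at 6 h was 0.06 (adjusted p = 0.144) with scaling by library size alone. The Nrf1-KO cells rose by 0.28 ± 0.0364 (adjusted p = 4.9e-08) and 0.98 ± 0.0349 (adjusted p = 3.3e-22). The difference between the lines was -0.23 in DMSO (adjusted p = 2.3e-06), -0.14 at 6 h (adjusted p = 0.0016; 0.0932 with library size alone) and 0.02 at 24 h (95% interval -0.05 to 0.09, adjusted p = 0.56). The response at 24 h was larger in the Nrf1-KO cells, with an interaction of 0.25 (0.0492, adjusted p = 5.6e-05), while that at 6 h was 0.09 (-0.01 to 0.19, adjusted p = 0.16).

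Because these genes rose together, the 250 bases before their RefSeq starts (GRCm38.p6) are shown. RefSeq promoter windows of 250 bases before to 50 after the start were found for 7 of the 8 genes, in 10 windows; Btrc had none. Each was searched on both strands for motifs of the unfolded protein response and of Nrf1. The ER stress response element (ERSE, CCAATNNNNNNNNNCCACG) was found in the Syvn1 window, on the coding strand, beginning 44 bases before the start at chr19:6046532-6046550. Of 32851 promoter windows in all, 0.119% hold it. The CCAAT box (CCAAT), which is also the first part of ERSE, is in 37.4% of all windows and was found in the windows of Sel1l (4 copies, on either strand) and Syvn1 (2 copies, 1 of them within its ERSE). The letters of ERSE-II (ATTGGNCCACG), the core of the unfolded protein response element (TGACGTGG), the core of the antioxidant response element to which Nrf1 binds (TGACNNNGC) and the core of the amino acid response element (TGATGNAA) were in none of the 10 windows, and are in 0.0365%, 0.676%, 12.4% and 3.97% of all windows. Capitals mark the ERSE in Syvn1 (chr19:6046326-6046575, plus strand) and the CCAAT boxes of either strand in Sel1l (chr12:91849158-91849407, minus strand), both written 5′ to 3′.
Syvn1: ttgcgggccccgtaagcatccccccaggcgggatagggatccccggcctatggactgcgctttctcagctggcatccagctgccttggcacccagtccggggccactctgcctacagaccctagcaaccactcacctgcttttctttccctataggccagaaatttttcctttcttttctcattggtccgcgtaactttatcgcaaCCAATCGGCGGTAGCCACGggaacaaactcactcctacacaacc
Sel1l: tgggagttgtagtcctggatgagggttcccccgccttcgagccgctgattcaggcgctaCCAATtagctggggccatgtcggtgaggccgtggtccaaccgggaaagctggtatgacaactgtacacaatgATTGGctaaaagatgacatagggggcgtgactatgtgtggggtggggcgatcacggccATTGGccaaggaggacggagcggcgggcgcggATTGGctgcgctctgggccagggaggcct

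A window with ERSE was found for 37 genes, of which 13 were tested, Syvn1 included. At 24 h of CFZ, 7 of the 13 were higher and 4 lower in WT cells (median log2 fold change 0.61), where 43.2% and 40.5% of all genes tested were (median 0.02), and 8 were higher and 4 lower in Nrf1-KO cells (median 0.77), where 44.4% and 41.1% of all genes were (median 0.03). Syvn1, at 1.21 and 1.15, was second in WT cells to Hspa5, the ER chaperone BiP, at 2.13 and 2.96. Pdia6, an ER disulfide isomerase whose window also holds ERSE, was lower, at -0.44 and -0.53. These counts are a description of genes that share letters and were given no test.

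Ngly1 encodes the cytosolic N-glycanase and lies on chromosome 14 (16249280 to 16311926, plus strand, GRCm38). In WT cells it stood at 30.7, 28.5 and 30.4 CPM in DMSO, 34.2, 35.2 and 30 at 6 h and 13.9, 15.9 and 17.4 at 24 h. The Nrf1-KO libraries read 23.6, 22.8 and 22.7 CPM in DMSO, 21.2, 22 and 21.2 at 6 h and 6.83, 4.16 and 7.17 at 24 h. All libraries at 24 h were below all libraries of the same line in DMSO and at 6 h, and all Nrf1-KO libraries were below all WT libraries of the same treatment. The lowest values rest on 75 to 113 reads per library. The log2 fold change over DMSO at 24 h was -0.90 in WT cells (standard error 0.0864; adjusted p = 3.8e-11), which is 1.87-fold lower, and -1.95 in Nrf1-KO cells (0.108, adjusted p = 3.9e-17), which is 3.86-fold lower. At 6 h neither change passed the threshold, with 0.15 in WT (95% interval 0 to 0.3, adjusted p = 0.077) and -0.10 in Nrf1-KO cells (-0.28 to 0.08, adjusted p = 0.33). All Nrf1-KO libraries at 6 h were nevertheless below all those in DMSO. With library size alone the Nrf1-KO value at 6 h passed (-0.21, adjusted p = 0.0307). From 6 h to 24 h the change was -1.05 in WT cells (adjusted p = 3.4e-12) and -1.85 in Nrf1-KO cells (adjusted p = 3.2e-15).

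The fall of Ngly1 was deeper in the Nrf1-KO cells, with an interaction at 24 h of -1.05 (standard error 0.145, 95% interval -1.35 to -0.75, adjusted p = 2.4e-07), and 4.67% of the genes tested had a lower value. The interaction ranged from -1.20 to -0.82 when each library was left out in turn. The level in Nrf1-KO against WT cells was -0.38 in DMSO, -0.62 at 6 h and -1.43 at 24 h (adjusted p = 9.3e-05, 2.5e-07 and 4.9e-12). Of the 8 genes, Ngly1 alone differed by at least 1.5-fold between the lines, and did so at 6 h and 24 h.

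Ddi2 encodes the protease that cleaves Nrf1 and lies on chromosome 4 (141677549 to 141723419, minus strand, GRCm38). In WT cells it stood at 15, 16.3 and 14.5 CPM in DMSO, 20.5, 20 and 18.1 at 6 h and 17.3, 18.3 and 17.5 at 24 h. The Nrf1-KO libraries read 19.2, 17.9 and 16.9 CPM in DMSO, 27.1, 28.2 and 27 at 6 h and 26.9, 24.2 and 24.5 at 24 h. Ddi2 was thus the only one of the 8 that was higher in the Nrf1-KO line in all 3 treatments, without overlap of libraries. WT cells gained 0.35 ± 0.0736 over DMSO at 6 h (log2, standard error; adjusted p = 8.5e-05), and the gain at 24 h was 0.22 ± 0.0742 (adjusted p = 0.0085). The Nrf1-KO cells gained 0.62 ± 0.0677 (adjusted p = 1.4e-09) and 0.49 ± 0.0645 (adjusted p = 2.6e-08). The WT value at 24 h did not pass with upper-quartile scaling (0.08, adjusted p = 0.319), with library size alone (0.11, adjusted p = 0.163), without the expression filter (0.16, adjusted p = 0.0722) or without WT DMSO replicate 1 (0.17, adjusted p = 0.0696). Ddi2 in Nrf1-KO against WT cells was 0.22 in DMSO, 0.49 at 6 h and 0.50 at 24 h (adjusted p = 0.0074, 4.2e-07 and 1e-07).

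The interaction of Ddi2 was 0.27 at 6 h (95% interval 0.06 to 0.47, adjusted p = 0.033) and 0.28 at 24 h (0.08 to 0.48, adjusted p = 0.016). The call at 6 h was lost in 10 of 26 alternatives, DESeq2 among them (adjusted p = 0.0792). That at 24 h was lost in 3, library size alone among them (0.20, adjusted p = 0.0792). The annotation places Rsc1a1 within Ddi2 on the same strand, where it covers 18.3% of the exonic bases, and the table gives Rsc1a1 at most 1 count in any library, so reads in the shared bases may have gone to Ddi2 or to neither. The closest relative of Ddi2, Ddi1, was listed at 0 in every library, as were the related Nrip2 and Nrip3.

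**Figure D2:**
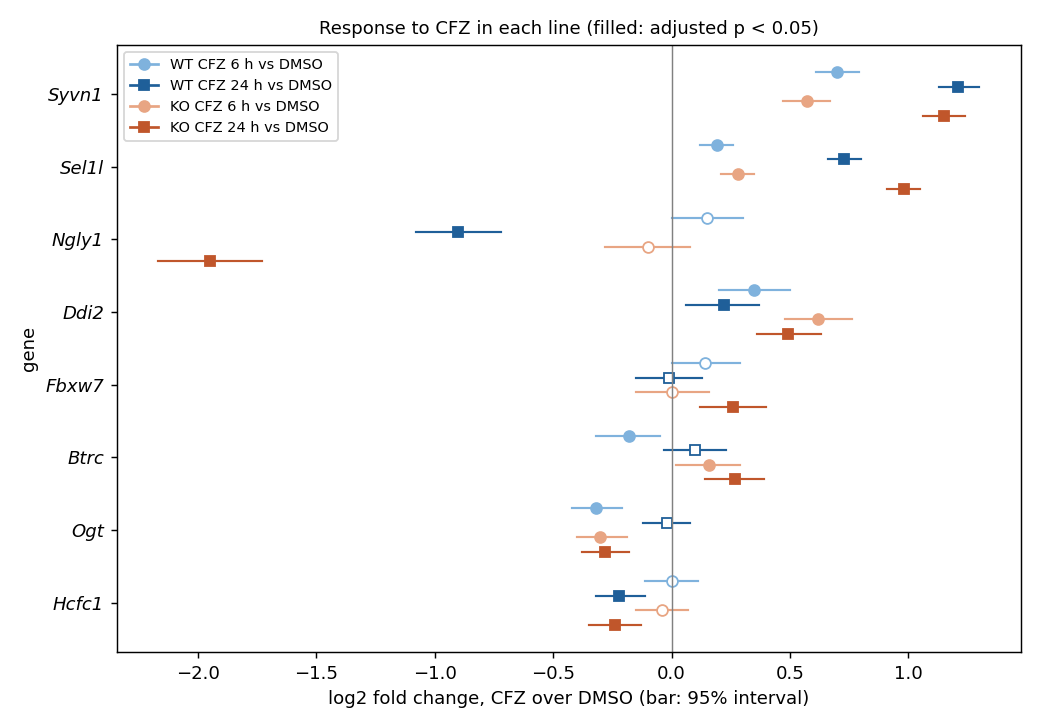
Log2 fold change over DMSO (x axis) of each gene (y axis) in WT (blue) and Nrf1-KO (KO, orange) cells at 6 h (circles) and 24 h (squares) of CFZ. Bars are 95% intervals and filled symbols passed the threshold. Syvn1 and Sel1l lie to the right in all 4 comparisons, and Ngly1 at 24 h lies at -0.90 in WT and -1.95 in Nrf1-KO cells.

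The receptors of the SCF ligases moved little. Fbxw7 (chromosome 3, 84815268 to 84979198, plus strand) ranged over libraries from 28.3 to 31.8 CPM in WT DMSO, 31.7 to 35.4 at 6 h and 29.7 to 30.4 at 24 h, and in Nrf1-KO cells from 24.6 to 27.3, 22.5 to 29.3 and 28.2 to 33 CPM. It was lower in Nrf1-KO than in WT cells in DMSO (-0.22, standard error 0.0682, adjusted p = 0.0063) and at 6 h (-0.37, 0.077, adjusted p = 0.00013), but at 24 h the difference was 0.05 (95% interval -0.1 to 0.19, adjusted p = 0.58). The change of Fbxw7 with CFZ passed the threshold in Nrf1-KO cells at 24 h only (0.26, adjusted p = 0.001), and the values in WT cells at 6 h and 24 h were 0.14 and -0.01 (adjusted p = 0.062 and 0.88). The WT value at 6 h passed in 6 of 25 alternatives (lowest adjusted p = 0.0293), and that at 24 h in 1, upper-quartile scaling (-0.15, adjusted p = 0.0473). The interaction at 24 h was 0.27 (0.0982, adjusted p = 0.019). With library size alone the Nrf1-KO change and the interaction were 0.07 (adjusted p = 0.322) and 0.19 (adjusted p = 0.0989), and the interaction did not pass without Nrf1-KO CFZ 24 h replicate 1 (0.23, adjusted p = 0.0506) or replicate 2 (0.24, adjusted p = 0.0568).

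Btrc (chromosome 19, 45363734 to 45530013, plus strand) ranged from 22.7 to 25.7 CPM in WT DMSO, 19.5 to 22.3 at 6 h and 25.2 to 26.2 at 24 h, and in Nrf1-KO cells from 20.8 to 22.7, 21.9 to 25.1 and 25.4 to 26.2 CPM. It fell in WT cells at 6 h (-0.18, standard error 0.067, adjusted p = 0.016), a call that did not pass without WT DMSO replicate 3 (-0.14, adjusted p = 0.0922) or WT CFZ 6 h replicate 1 (-0.12, adjusted p = 0.143). In Nrf1-KO cells Btrc rose by 0.16 at 6 h (0.068, adjusted p = 0.043). This call was lost in 16 of 25 alternatives, DESeq2 among them (0.14, adjusted p = 0.142). At 24 h the rise in Nrf1-KO cells was 0.27 (0.0624, adjusted p = 0.00026, but adjusted p = 0.23 with library size alone). The difference between the responses at 6 h was 0.34 (0.0955, adjusted p = 0.0053) and kept its call in every alternative, from 0.26 to 0.40 when each library was left out. The level in Nrf1-KO against WT cells was -0.16 in DMSO and 0.18 at 6 h (adjusted p = 0.03 and 0.034), and 0 at 24 h (95% interval -0.13 to 0.13). The call in DMSO was lost in 15 of 25 alternatives, DESeq2 among them (adjusted p = 0.0998). That at 6 h was lost in 5, among them the fit without the expression filter (adjusted p = 0.0666).

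Ogt (chromosome X, 101640060 to 101684351, plus strand) ranged from 176 to 195 CPM in WT DMSO, 140 to 156 at 6 h and 167 to 189 at 24 h. In Nrf1-KO cells it ranged from 170 to 183 CPM in DMSO, 133 to 150 at 6 h and 139 to 155 at 24 h. All libraries at 6 h were below all DMSO libraries of their line, and at 24 h the WT libraries overlapped their DMSO libraries whereas the Nrf1-KO libraries did not. Ogt fell at 6 h by 0.32 on the log2 scale in WT cells (standard error 0.0506, adjusted p = 1.6e-06) and by 0.30 in Nrf1-KO cells (0.0516, adjusted p = 6.4e-06). At 24 h its value was -0.02 in WT cells (95% interval -0.12 to 0.08, adjusted p = 0.68) and -0.28 in Nrf1-KO cells (0.0499, adjusted p = 6.9e-06). The WT value at 24 h was -0.16 with upper-quartile scaling (adjusted p = 0.00356) and -0.13 with library size alone (adjusted p = 0.0201). The interaction of Ogt was 0.02 at 6 h (-0.13 to 0.17, adjusted p = 0.87) and -0.26 at 24 h (0.0704, adjusted p = 0.0024).

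Hcfc1, whose product HCF-1 is a chromatin-bound partner and substrate of OGT (chromosome X, 73942792 to 73966357, minus strand), ranged from 217 to 227 CPM in WT DMSO, 214 to 229 at 6 h and 188 to 202 at 24 h. In Nrf1-KO cells it ranged from 195 to 222, 190 to 209 and 158 to 194 CPM. Hcfc1 fell at 24 h by 0.22 in WT cells (standard error 0.0529, adjusted p = 0.00044) and by 0.24 in Nrf1-KO cells (0.0528, adjusted p = 0.00013), and at 6 h the values were 0 (95% interval -0.11 to 0.11) and -0.04 (-0.15 to 0.07). It was lower in Nrf1-KO than in WT cells by 0.13 in DMSO, 0.16 at 6 h and 0.15 at 24 h (adjusted p = 0.039, 0.0099 and 0.015), but none of these passed with upper-quartile scaling (adjusted p = 0.0562, 0.055 and 0.0624). The interactions were -0.04 at 6 h (-0.19 to 0.11) and -0.02 at 24 h (-0.18 to 0.13).

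Counted together, 5 of the 8 genes changed in WT cells at 6 h (3 higher and 2 lower), where 71.9% of all genes tested did (35.6% higher and 36.2% lower), and 5 changed at 24 h (3 higher and 2 lower), where 83.8% did (43.2% and 40.5%). In the Nrf1-KO line 5 changed at 6 h (4 higher and 1 lower; all genes 69.5%, with 34.5% higher and 35% lower) and 8 at 24 h (5 higher and 3 lower; all genes 85.5%, with 44.4% and 41.1%). From 6 h to 24 h, 6 changed in WT cells (4 higher and 2 lower; all genes 72.4%, with 36.9% and 35.4%) and 5 in Nrf1-KO cells (3 higher and 2 lower; all genes 77%, with 38.7% and 38.3%). The replicates were tight on the whole, so that small changes passed the threshold. Their spread was uneven, and for Ngly1 in Nrf1-KO cells at 24 h the SD was 1.65 around a mean of 6.05 CPM. With a minimum of 1.5-fold the genes counted were Syvn1 at 6 h in WT cells (1 of 8, against 24.9% of all genes), Ddi2 at 6 h in Nrf1-KO cells (1 of 8, against 21.5%), and Syvn1, Sel1l and Ngly1 at 24 h in both lines (3 of 8, against 47.3% in WT and 48.8% in Nrf1-KO cells). From 6 h to 24 h they were Ngly1 in WT cells (1 of 8, against 27.8%) and Ngly1 and Sel1l in Nrf1-KO cells (2 of 8, against 34.1%). Under this rule the share of the 8 genes was below that of all genes in each of these comparisons.

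**Figure D3:**
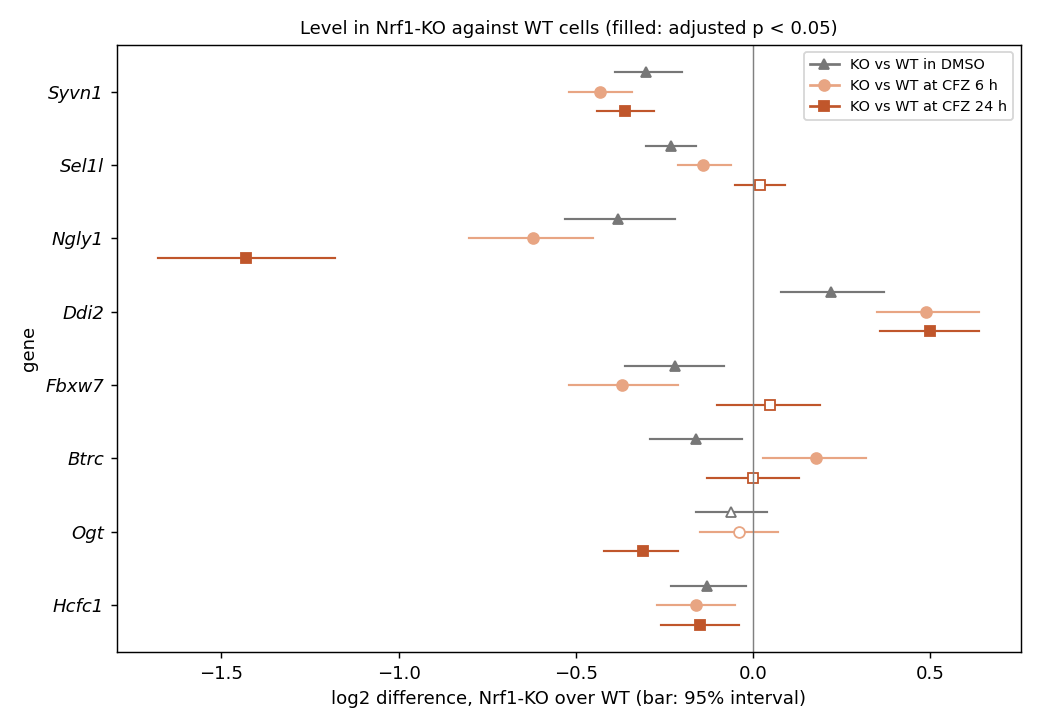
Log2 difference in level between Nrf1-KO and WT cells (x axis) for each gene (y axis) in DMSO (triangles), at 6 h (circles) and at 24 h (squares) of CFZ. Bars are 95% intervals and filled symbols passed the threshold. Ddi2 lies to the right and Ngly1 and Syvn1 to the left of 0 in all 3 treatments.

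Between the lines, 7 of the 8 genes differed in DMSO, with Ddi2 higher and 6 lower, where 54.7% of all genes tested differed (25.7% higher and 29.1% lower). At 6 h 7 differed (2 higher and 5 lower; all genes 61.3%, with 30.5% higher and 30.8% lower) and at 24 h 5 (1 higher and 4 lower; all genes 72%, with 35.6% and 36.4%). The median log2 difference of the 8 in DMSO was -0.19, against -0.02 over all genes. With a minimum of 1.5-fold the counts were 0 in DMSO (10% of all genes), 1 at 6 h (16.1%) and 1 at 24 h (27%), the last 2 being Ngly1. The response to CFZ differed between the lines for 2 of the 8 at 6 h, Ddi2 and Btrc, both more positive in the Nrf1-KO cells (all genes 38.3%, with 19.8% more positive and 18.4% more negative), and for 5 at 24 h (all genes 59.8%, with 29.7% and 30%), with Sel1l, Ddi2 and Fbxw7 more positive and Ngly1 and Ogt more negative in the Nrf1-KO cells. With a minimum of 1.5-fold, the interaction was called for 0 of 8 at 6 h (8.59% of all genes) and for Ngly1 at 24 h (1 of 8, against 22%). The comparisons of a line share its DMSO libraries and are not independent of each other.

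**Figure D4:**
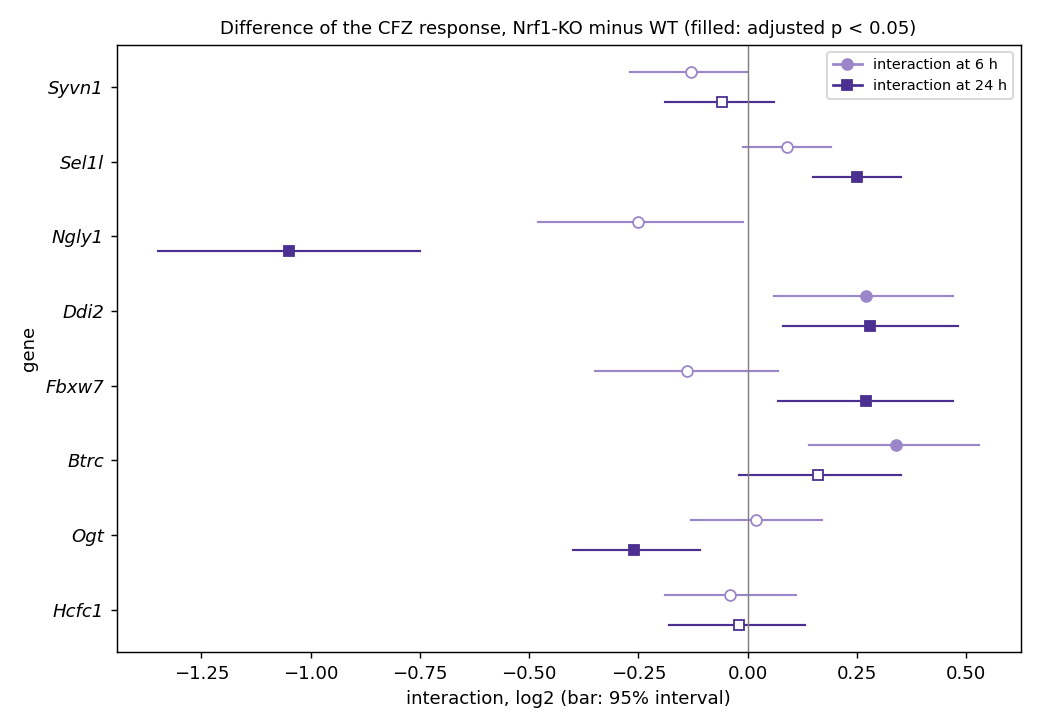
Interaction (x axis, log2 response of Nrf1-KO minus WT cells) for each gene (y axis) at 6 h (circles) and 24 h (squares) of CFZ. Bars are 95% intervals and filled symbols passed the threshold. Ngly1 at 24 h lies at -1.05, and the other values lie between -0.26 and 0.34.

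A list of 43 further genes of the same steps was counted beside the 8, and 39 of them were tested. Like the 8, it was chosen with earlier results of these data known. Its counts were taken with the main scaling only. Scaling by library size alone moved the median of all genes in WT cells at 6 h from -0.02 to -0.15. In WT cells 31 of the 39 were higher and 0 lower at 6 h (median log2 fold change 0.28), and 27 were higher and 8 lower at 24 h, with a median of 0.32. In Nrf1-KO cells 28 were higher and 4 lower at 6 h (median 0.24), and 24 higher and 11 lower at 24 h (median 0.30). Over all genes tested the medians were -0.02, 0.02, -0.01 and 0.03, in the same order, with 35.6% higher and 36.2% lower, 43.2% and 40.5%, 34.5% and 35%, and 44.4% and 41.1%. Of the 15 ERAD and retrotranslocation genes tested, 12 were higher and 0 lower in WT cells at 6 h (all genes 35.6% and 36.2%), and 8 higher and 6 lower at 24 h (all genes 43.2% and 40.5%). In the Nrf1-KO cells the counts were 11 higher and 1 lower at 6 h (all genes 34.5% and 35%) and 7 higher and 4 lower at 24 h (all genes 44.4% and 41.1%). Ufd1l, a VCP cofactor, had the largest rise in this group at 24 h, from 57.1 ± 2.49 CPM in DMSO (SD, n = 3) to 254 ± 6.51 in WT cells and from 55 ± 0.882 to 135 ± 7.97 in Nrf1-KO cells, with an interaction of -0.87 (adjusted p = 9.6e-14). Herpud1, an ER membrane protein that assists the ligase, rose and then fell in WT cells, from 174 ± 1.86 CPM in DMSO to 238 ± 3.37 at 6 h and 96.5 ± 0.868 at 24 h. In Nrf1-KO cells Herpud1 was 170 ± 2.97 CPM in DMSO, 293 ± 5.68 at 6 h and 165 ± 4.73 at 24 h. Its interaction at 24 h was 0.81 (adjusted p = 1.4e-15). The interaction of Syvn1 at the same time was -0.06.

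Among the genes around the N-glycan step, Rad23b, whose product binds NGLY1, rose in WT cells at 24 h by 0.72 (adjusted p = 1.3e-19). In Nrf1-KO cells Rad23b rose by 0.11 (adjusted p = 0.0027), with an interaction of -0.61 (adjusted p = 4.3e-13). Engase, a cytosolic enzyme that also removes N-glycans, had an interaction at 24 h of -0.72 (standard error 0.221, adjusted p = 0.0057), in the same direction as that of Ngly1, and Stt3b, a subunit that attaches glycans, one of 0.31 (adjusted p = 2.8e-07). The level of Engase was low, with group means between 3.04 and 6.93 CPM. The list held 10 genes around the SCF step besides Fbxw7 and Btrc, not all of them SCF subunits or kinases. Of these, 9 were higher and 0 lower in WT cells at 24 h (all genes 43.2% and 40.5%). In Nrf1-KO cells at 24 h, 7 were higher and 3 lower (all genes 44.4% and 41.1%). Fbxw7 and Btrc did not pass in WT cells at that time, except Fbxw7 with upper-quartile scaling (-0.15, adjusted p = 0.0473). Skp1a, the SCF adaptor, had the largest value there (0.78, adjusted p = 1.2e-18), with an interaction of -0.45 (adjusted p = 1.4e-08), and Csnk2a2, a catalytic subunit of casein kinase 2, an interaction of 0.48 (adjusted p = 2.5e-09). Of the 9 genes of O-GlcNAc and HCF-1, 8 were higher and 1 lower in WT cells at 24 h (all genes 43.2% and 40.5%), and 7 higher and 2 lower in Nrf1-KO cells (all genes 44.4% and 41.1%). Bap1, a deubiquitinase that binds HCF-1, rose by 0.97 (adjusted p = 1.1e-18), and Hcfc2, the relative of Hcfc1, fell by 0.21 (adjusted p = 0.00075). The hexosamine enzymes Gfpt2 and Uap1, which make the sugar donor of OGT, had interactions of 1.10 (adjusted p = 9.4e-11) and -1.13 (adjusted p = 6.4e-16). Gfpt2 went from 20.1 ± 0.555 to 27.7 ± 1.89 CPM in WT cells and from 11 ± 1.19 to 32.9 ± 1.42 CPM in Nrf1-KO cells at 24 h. Its log2 difference between the lines was -0.86 in DMSO and 0.23 at 24 h. Uap1 went from 55.4 ± 1.57 to 70.9 ± 1.91 CPM in WT cells and from 52.7 ± 2.34 to 30.9 ± 1.32 CPM in Nrf1-KO cells at 24 h.

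**Figure D5:**
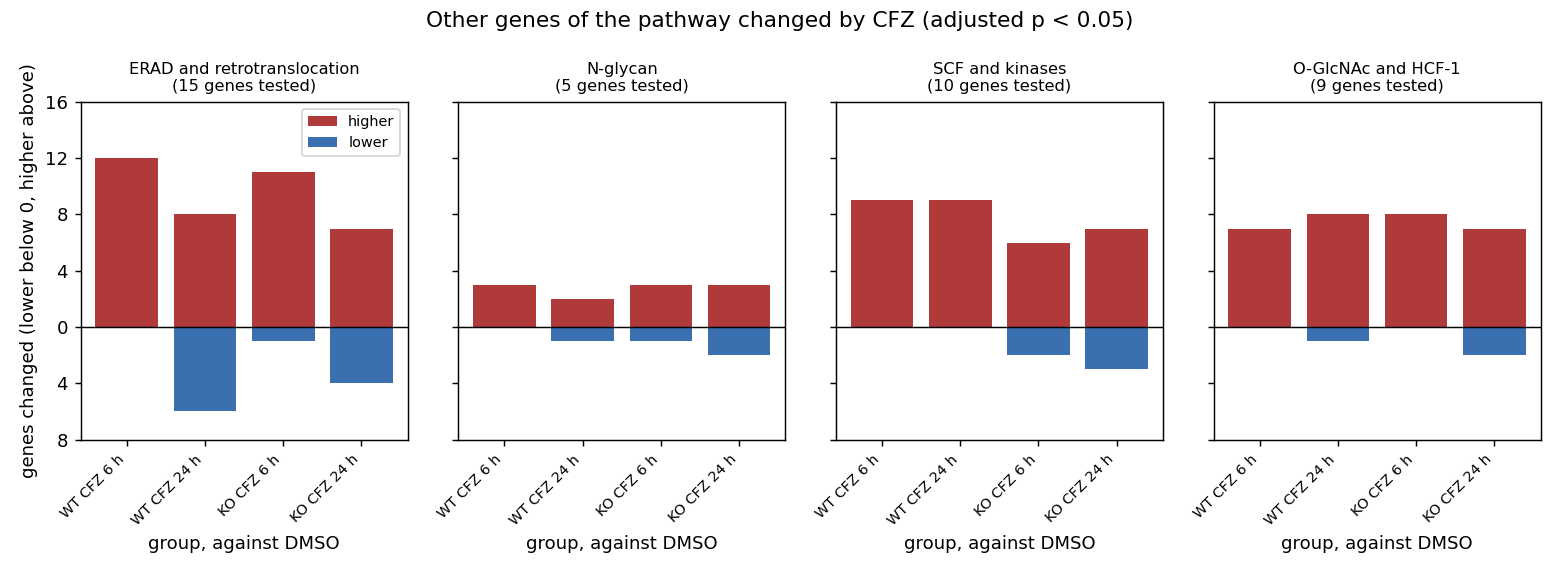
Number of further pathway genes that passed the threshold (y axis, higher above and lower below 0) in the 4 comparisons of CFZ with DMSO (x axis), by role. In WT cells at 6 h, 12 of 15 ERAD genes were higher and 0 lower.

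Across the 18 libraries the levels of Syvn1 and Sel1l had a Pearson correlation of 0.92 (log2 CPM), Ngly1 and Hcfc1 0.82, Ddi2 and Ogt -0.77, and Ngly1 and Sel1l -0.73. The 18 points fall into 6 groups and share the scaling, so these values describe the pattern over groups. Such values were common, since 788 of the genes tested had a correlation over 0.9 with Syvn1, 796 with Sel1l, 324 with Ngly1 and 62 with Ddi2, against 7 with Hcfc1, 3 with Ogt and 0 with Btrc and Fbxw7. The gene most like Syvn1 over the libraries was Trpc4ap (0.995), and for Sel1l it was Eif3f (0.99), for Ngly1 Mars (0.98) and for Ddi2 Pvt1 (0.971). For the genes that moved little the closest patterns were less alike, at 0.931 for Ogt (Pgm2), 0.926 for Hcfc1 (Lamc1), 0.859 for Btrc (Foxc2) and 0.805 for Fbxw7 (Ppp2r3c).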

How the data were processed

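RNA from 18 cultures was analysed. Per the labels and the study's methods, the authors made stranded mRNA libraries, sequenced paired 125-base reads and used an application that joins STAR and DESeq2. They deposited raw counts, whole reads per gene symbol, without normalization; versions, build, annotation and use of strand are not given in the sources used here. Columns were matched to samples by the names in the labels. Counts were tested with edgeR 4.0.16 in R 4.3.3: expression filter (minimum count 10, minimum total 15), TMM scaling, a quasi-likelihood fit with 6 group means over 18 libraries, Benjamini-Hochberg adjustment over 11762 genes and a threshold of 0.05, with a second rule of at least 1.5-fold. The standard error is the size of the log2 fold change divided by the square root of F. There were 11 comparisons. The common biological coefficient of variation was 3.13%, and chi-square per degree of freedom between replicates was 1.438 to 8.469, so none was a duplicate. It was 3.292 to 8.469 among the Nrf1-KO libraries at 24 h and 1.462 to 1.604 among the WT libraries at 24 h.

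Alternatives were DESeq2 1.42.0, upper-quartile scaling, library size alone, no filter, a filter on the mean count (10), a fit on just the libraries compared, a replicate block, leaving out each library and, chosen after seeing the data, Rsc1a1 counts added to Ddi2. Gene models are GENCODE M21 (GRCm38) matched by symbol, and promoter windows are from RefSeq; neither need be the authors' annotation. The 8 genes and all lists were chosen with earlier results of these data known. All 8 are named, with Nfe2l1, and from the further genes the largest positive and negative called value per role in WT cells at 24 h and in the interaction at 24 h, except 1 gene that is not reported here; similar genes are those with the highest Pearson correlation. ERSE genes were chosen after the motif was found in Syvn1. Scripts were tested on simulated data.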

Additional observations from a re-analysis of the deposited data

Results flagged for a closer look

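The responses to CFZ that differed between the Nrf1-KO and the WT line, by edgeR's test of the interaction itself, were picked out. At 24 h these were Ngly1 (-1.05, adjusted p = 2.4e-07), Sel1l (0.25, adjusted p = 5.6e-05), Ddi2 (0.28, adjusted p = 0.016), Fbxw7 (0.27, adjusted p = 0.019) and Ogt (-0.26, adjusted p = 0.0024). At 6 h they were Btrc (0.34, adjusted p = 0.0053) and Ddi2 (0.27, adjusted p = 0.033). The targeted gene Nfe2l1 had interactions of 0.70 and -0.15 at 6 h and 24 h (adjusted p = 1.6e-13 and 0.0062), so that its own reads rose more in the Nrf1-KO line at 6 h and less at 24 h. Over all genes tested 38.3% and 59.8% differed at 6 h and 24 h. No cause was tested.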

How the results depend on the processing

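Over the 88 values (8 genes in 11 comparisons), 60 passed the threshold, and 44 of these passed in every alternative. None of the 60 changed direction in any alternative, and 16 lost the call in at least 1. Of the 28 values that did not pass, 13 passed in at least 1 alternative, among them Fbxw7 from 6 h to 24 h in WT cells (14 of 25 alternatives) and over DMSO at 6 h (6), Ngly1 in WT cells at 6 h (5) and in the interaction at 6 h (6), and Ddi2 from 6 h to 24 h in WT (6 of 26) and Nrf1-KO cells (5). Depth limits Ngly1 in Nrf1-KO cells at 24 h (75 to 113 reads per library). Scaling by library size alone moved the median of all genes from -0.02 to -0.15 in WT cells at 6 h, from -0.01 to -0.12 in Nrf1-KO cells at 6 h and from 0.03 to -0.15 at 24 h, and upper-quartile scaling moved it to -0.13 and -0.11 in WT cells at 6 h and 24 h. With library size alone the share of called genes that were higher went from 49.6% to 35.4% (WT, 6 h), 49.7% to 36.4% (Nrf1-KO, 6 h), 52% to 41.6% (Nrf1-KO, 24 h), 46.9% to 57.7% (lines, DMSO), 49.8% to 60.8% (lines, 6 h) and 49.8% to 40% (interaction, 24 h); with upper-quartile scaling it was 37.9% in WT cells at 6 h.

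Counts of the 8 genes called moved by over 1.5 times with a minimum of 1.5-fold, to 1 (WT, 6 h), 3 (WT, 24 h), 1 (Nrf1-KO, 6 h), 3 (Nrf1-KO, 24 h), 1 (WT, 24 h against 6 h), 2 (Nrf1-KO, 24 h against 6 h), 0, 1 and 1 (lines in DMSO, at 6 h and at 24 h), and 0 and 1 (interaction at 6 h and 24 h). The count for the interaction at 6 h was also 1 with DESeq2 and 1 to 4 when each library was left out, being 1 without WT DMSO replicate 1, Nrf1-KO DMSO replicate 3 or Nrf1-KO CFZ 6 h replicate 2 and 4 without Nrf1-KO CFZ 24 h replicate 1. That at 24 h was 3 with library size alone.

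Values near 0 that did not pass changed sign. These were Hcfc1 in WT cells at 6 h (0 with the replicate block; -0.02 to 0.04 with each library left out) and in Nrf1-KO cells at 6 h (-0.08 to 0.02), Btrc in WT cells at 24 h (-0.04 with upper-quartile scaling, 0 with library size alone), Fbxw7 in Nrf1-KO cells at 6 h (-0.01 with DESeq2, -0.07 with upper-quartile scaling, -0.11 with library size alone, -0.05 without the filter, 0 with the mean count filter; -0.06 to 0.11) and in WT cells at 24 h (-0.10 to 0.02), Ogt in WT cells at 24 h (-0.09 to 0.04) and in Nrf1-KO cells from 6 h to 24 h (-0.01 and -0.05 with the same scalings; -0.04 to 0.06). Between the lines they were Ogt at 6 h (0.01 and 0.03; -0.09 to 0), Sel1l at 24 h (-0.01 with library size alone) and Btrc at 24 h (-0.03; -0.01 to 0.03). Among interactions they were Ogt at 6 h (0 without the filter; -0.04 to 0.06), Hcfc1 at 24 h (0 with upper-quartile scaling; -0.11 to 0.04) and Hcfc1 at 6 h (-0.09 to 0.02). The cause was not tested.

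Leaving out a library ended further calls. The Ddi2 interaction at 6 h (0.19 to 0.32) was lost without WT DMSO replicate 1 or 2, WT CFZ 6 h replicate 2 or 3, Nrf1-KO DMSO replicate 3, Nrf1-KO CFZ 6 h replicate 2 or Nrf1-KO CFZ 24 h replicate 2 or 3, and that at 24 h (0.22 to 0.32) without WT DMSO replicate 2 or Nrf1-KO DMSO replicate 3. Btrc lost its call in 11 of 18 such fits in Nrf1-KO cells at 6 h (0.11 to 0.22), in 10 between the lines in DMSO (-0.20 to -0.11) and in 4 at 6 h (0.12 to 0.24). Hcfc1 between the lines lost it in 8, 1 and 3 (-0.19 to -0.09, -0.20 to -0.13 and -0.22 to -0.07 in DMSO, at 6 h and at 24 h), and Fbxw7 from 6 h to 24 h in Nrf1-KO cells without CFZ 6 h replicate 2 (0.15 in place of 0.26).

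Little pairing by replicate number was seen (mean correlation of same-numbered deviations 0.0125 over 45 pairs, from -0.0451 to 0.0849, and 10 of 18 libraries correlated best with their own number). With the replicate number as a block, 1 value of the 8 genes gained a call (Fbxw7 from 6 h to 24 h in WT cells, -0.16, adjusted p = 0.0427 in edgeR), none lost one, and 4650 and 7140 of all genes were called in the interactions at 6 h and 24 h, in place of 4502 and 7030. With Rsc1a1 counts added, all 11 Ddi2 values kept their direction and side of the threshold. Rsc1a1 had at most 1 count in any library, so this setting could hardly have moved them. It does not test where reads in the bases shared by both genes were counted.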
